A study of Homo sapiens with 6 samples.

Results

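Most of the 56 genes described here encode proteins of the small nuclear ribonucleoproteins (snRNPs), the RNA and protein particles that build the spliceosome. Some act elsewhere, such as LSM14A in the cytoplasm and LSM10 and LSM11 on histone mRNAs. All 56 are called snRNP core genes or members below. The rule for their choice reads gene symbols only (SNRP, SNRNP, SF3A, SF3B, LSM, PRPF, U2AF1 and U2AF2). Of the 36517 genes in the count table, 77 carried such a symbol, and 21 of these were pseudogenes and were left out. All 56 are annotated as protein-coding, all 56 were abundant enough to be tested, and the rule uses no measured value, although the set was proposed with earlier results of these data known. The study asked how knockdown of tRF-1-Ser, a small RNA derived from a serine tRNA precursor, alters mRNA in MDA-MB-453, a human breast cancer cell line. All cells received a lentivirus. The control group carried a negative-control hairpin (shNC, n = 3) and the shtRF group a hairpin against tRF-1-Ser (n = 3), both harvested at day 3. The sources used here do not say whether the 3 libraries of a group came from separate transductions, so p-values measure the spread between these libraries, which may be technical.

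A spliceosomal snRNP is built on a small nuclear RNA (U1, U2, U4, U5 and others) around which a ring of Sm proteins closes, whereas U6 carries a related ring of LSM proteins. U1 recognises the start of an intron and U2 the branch point, and the U4/U6.U5 tri-snRNP then joins them and is rearranged into the catalytic machine. A minor spliceosome built on U11 and U12 removes a rare class of introns, and a U7 particle with a mixed ring trims histone mRNAs.

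The libraries held 63541413 to 78917459 counts, a 1.24-fold span, and the Pearson correlation of log2 values was 0.9973 to 0.998 within groups and 0.9878 to 0.9894 between groups. Of the markers of this line, ERBB2 lay at 332 to 434 counts scaled to library size (CPM), GATA3 at 225 to 275, FOXA1 at 124 to 157 and EPCAM at 489 to 544. KRT8 was at 1558 to 1603 in control and 2530 to 2781 in shtRF, and KRT18 at 380 to 407 and 576 to 615. The leukocyte marker PTPRC reached at most 0.0679 CPM, the endothelial marker PECAM1 0.127 and ESR1 0.373, while the fibroblast marker COL1A1 was at 29.8 to 35.8 in control and at most 21.4 in shtRF. Whether these markers have a part in the differences below was not tested. The target of the hairpin is not measured by mRNA libraries, so the group names rest on the labels.

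More snRNP core genes were lower than higher after the knockdown, and most differences were small. With edgeR's quasi-likelihood test and a Benjamini-Hochberg adjusted p under 0.05 over all 19628 tested genes, 23 of the 56 members (41.1%) fell and 11 (19.6%) rose, and 22 did not pass. Over all tested genes, 39.5% were called, 18.9% lower and 20.6% higher. The members were more abundant than most genes, with a median of 74.5 CPM against 7.57 for all tested genes. Among tested genes with a mean of at least 10 CPM, 24.8% were lower and 31.6% higher, and of the 52 members at that level 21 were lower and 11 higher. In bulk RNA, a lower level in every cell cannot be told apart from fewer cells that express the gene.

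The median log2 fold change (shtRF over control) of the members was -0.12, with quartiles of -0.27 and 0.08, beside a median of 0.00 and quartiles of -0.27 and 0.24 for all tested genes. A total of 54 members lay within 1.5-fold of control in either direction. The exceptions were SNRPD3 and LSM11, both lower, and no member rose beyond 1.5-fold. Over all tested genes, 6.83% were called and fell by more than 1.5-fold and 6.22% were called and rose by as much. Without any model, the 3 shtRF libraries lay below the 3 control libraries for 26 members (46.4%) and above them for 10 (17.9%), where 23.8% and 24.9% of all tested genes did so. The summed level of the 56 members was 10046, 9781 and 10346 CPM in control and 9371, 10199 and 9910 CPM in shtRF. These sums overlapped between the groups.

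**Figure D1:**
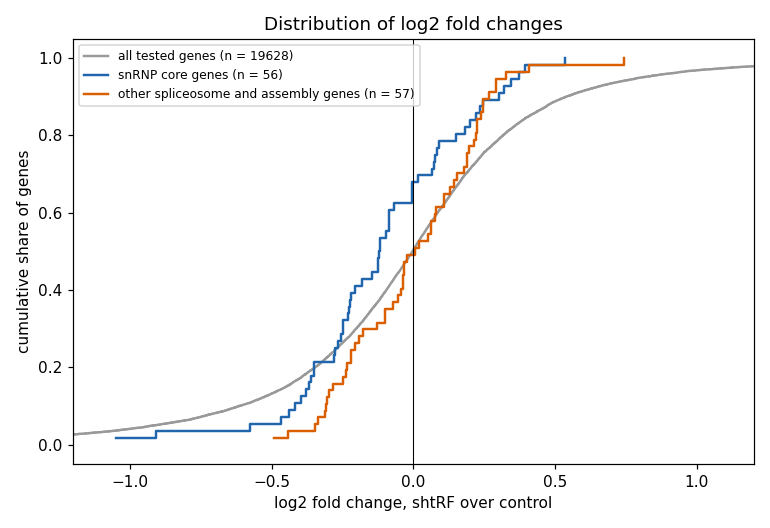
Cumulative share of genes (y axis) against the log2 fold change of shtRF over control (x axis) for the 56 snRNP core genes, 57 other spliceosome and assembly genes and all 19628 tested genes. The curve of the core genes reaches its middle at -0.12, left of that of all tested genes at 0.00, and both of its ends are shorter.

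**Figure D2:**
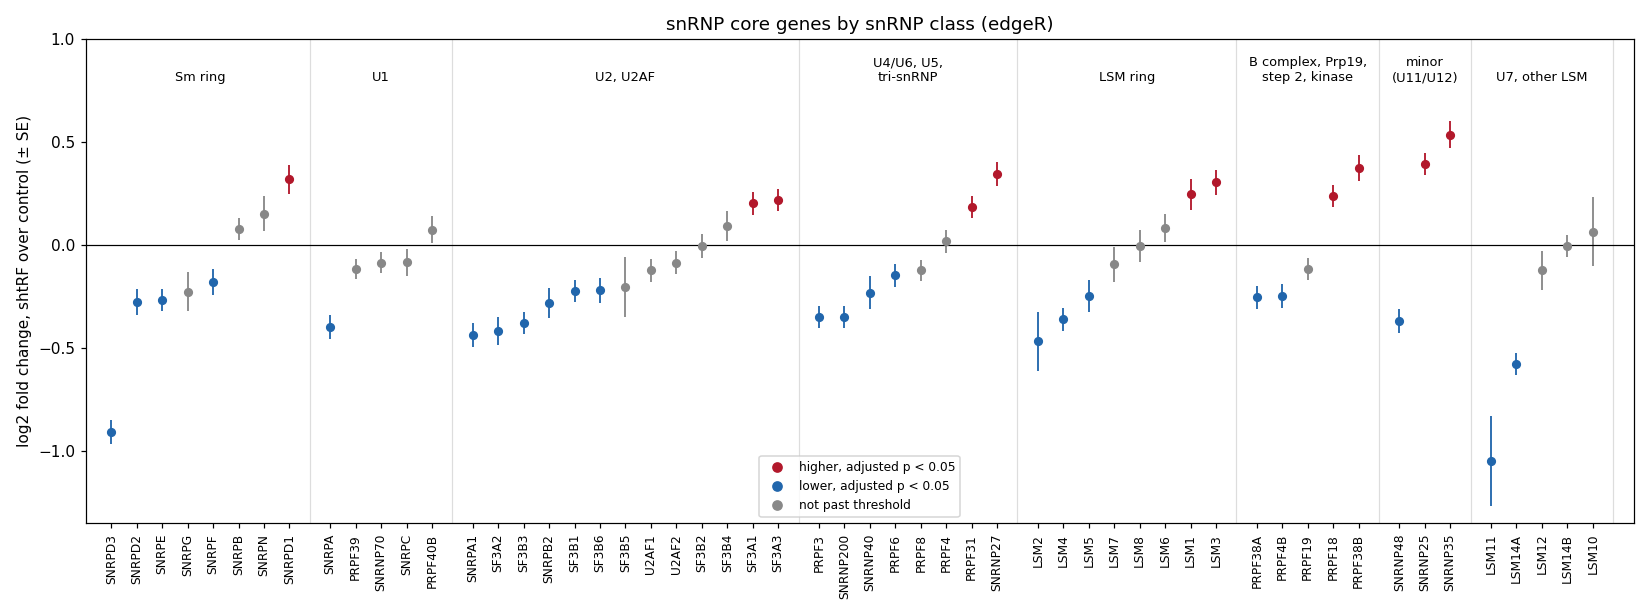
Log2 fold change of shtRF over control with its standard error (y axis) for each member named in the text, ordered within 8 classes (x axis); blue marks an adjusted p under 0.05 and lower, red under 0.05 and higher, grey neither. Every class holds members on both sides of 0, and SNRPD3 and LSM11 lie lowest.

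The promoters of 3 members are shown as examples of 3 short motifs, in members called in either direction. RefSeq windows of 250 bases before the annotated start (GRCh38.p14) were found for 46 members. For 7 of them the window lay wholly upstream of the first exon in the count table, and those printed come from these 7, of which 4 precede a lower, 1 a higher and 2 an uncalled member. Not printed among the lower ones are SNRNP40, with 4 matches to CCAAT, and PRPF6, with 2 to CCGGAA. Capitals mark the E-box CACGTG, the ETS core CCGGAA and the box CCAAT on either strand (from the other strand it reads ATTGG), and each sequence is written 5′ to 3′ in the direction of its gene. The first window, chr6:7589948-7590197 on the plus strand, precedes SNRNP48, which fell, and holds both an E-box and a CCAAT match. The second, chr2:96305547-96305796 on the minus strand, precedes SNRNP200, which fell, and the third, chr1:108692060-108692309 on the plus strand, precedes PRPF38B, which rose.
SNRNP48: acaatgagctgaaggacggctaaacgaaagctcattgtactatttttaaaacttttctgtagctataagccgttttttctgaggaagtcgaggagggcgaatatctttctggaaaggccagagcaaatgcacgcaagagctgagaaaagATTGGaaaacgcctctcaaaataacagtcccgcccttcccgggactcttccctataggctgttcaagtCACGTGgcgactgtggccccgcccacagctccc
SNRNP200: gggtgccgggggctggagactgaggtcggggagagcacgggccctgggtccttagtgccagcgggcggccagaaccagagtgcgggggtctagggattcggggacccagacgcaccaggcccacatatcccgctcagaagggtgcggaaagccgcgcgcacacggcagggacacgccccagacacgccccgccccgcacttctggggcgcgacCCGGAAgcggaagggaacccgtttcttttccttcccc
PRPF38B: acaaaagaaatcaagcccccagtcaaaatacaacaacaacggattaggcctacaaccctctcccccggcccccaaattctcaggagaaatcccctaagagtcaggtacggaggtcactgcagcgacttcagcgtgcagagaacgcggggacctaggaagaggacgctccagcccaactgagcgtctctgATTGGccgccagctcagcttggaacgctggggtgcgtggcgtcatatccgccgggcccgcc
CCGGAA, the core letters of sites of ETS factors, stood in 22 of the 46 member windows (47.8%), in 24.2% of the windows of 10853 tested genes and in 14.8% of all 27305. CCAAT stood in 20 (43.5%), against 35.2% and 33.0%, and the E-box CACGTG in 2 (4.35%), against 8.84% and 6.49%. By direction, CCGGAA was found in 8 of the 19 lower members with a window, 5 of the 8 higher and 9 of the 19 not called. In the same order, CCAAT was found in 9, 4 and 7 and the E-box in 2, 0 and 0. These motifs were chosen after the changes were known, none of the 3 overlaps another in its letters, and a match is a description of the letters only. The windows of other genes were not matched to the members in abundance. The 46 windows also include those not wholly upstream of the first counted exon.

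In the Sm ring, the heptamer that closes around the snRNA, members moved in both directions. Of its 8 members 4 fell (SNRPD3, SNRPD2, SNRPE and SNRPF), SNRPD1 rose and 3 did not pass, with a median log2 fold change of -0.20. Beside this and the class counts that follow, 18.9% of all tested genes were lower and 20.6% higher. SNRPD3 (chr22:24555503-24609980, GRCh38), which pairs with SNRPB in the ring, stood at 67.7, 71.5 and 65.4 CPM in control and 35.6, 37.9 and 35.5 CPM in shtRF. The groups were far apart, and SNRPD3 fell by 46.7% (log2 fold change -0.91, SE 0.06, adjusted p = 3.56e-11). Of its exonic bases, 24.6% are shared with exons of GUCD1 on the opposite strand, whose log2 fold change was -0.10, and how strand was used in counting is not given in the sources used here. SNRPD1 (chr18:21612267-21633524), the partner of SNRPD2, went the other way, with 256, 272 and 285 CPM in control and 292, 360 and 361 in shtRF. The lowest shtRF library was close to the highest control library, and the rise was 0.32 on the log2 scale (SE 0.07, adjusted p = 0.000835).

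SNRPD2 was at 70.9, 63.7 and 74.9 CPM in control and 57.5, 60.4 and 55.1 in shtRF (log2 fold change -0.28, SE 0.06, adjusted p = 0.00111). SNRPE was at 79.6, 79.0 and 83.9 and then 68.8, 69.1 and 63.7 (-0.27, SE 0.05, adjusted p = 0.000473). Neither gene had libraries that overlapped between the groups. SNRPF had the weakest call of the ring (-0.18, SE 0.06, adjusted p = 0.0246), its groups overlapped, and the call was lost without control replicate 3 (-0.11, adjusted p = 0.146), without shtRF replicate 1 (-0.14, adjusted p = 0.110) and without shtRF replicate 3 (-0.18, adjusted p = 0.0768).

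SNRPB, which encodes SmB and SmB′, was the most abundant ring gene per length and did not pass the test, with 226, 224 and 242 CPM in control and 247, 247 and 235 in shtRF (0.08, SE 0.05, adjusted p = 0.270). Its close relative SNRPN, known from the brain, was at 15.1, 14.1 and 12.5 CPM in control and 14.6, 15.2 and 16.4 in shtRF (0.15, SE 0.08, adjusted p = 0.171). SNRPN shares 39.2% of its exonic bases with SNURF on the same strand (log2 fold change 0.17), and its reads may also be shared with SNRPB. SNRPG was at -0.23 (SE 0.10, adjusted p = 0.0641). Its 9 pseudogenes in the table held 39.2% to 53.3% as many counts as SNRPG itself in each library, so its level is uncertain.

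**Figure D3:**
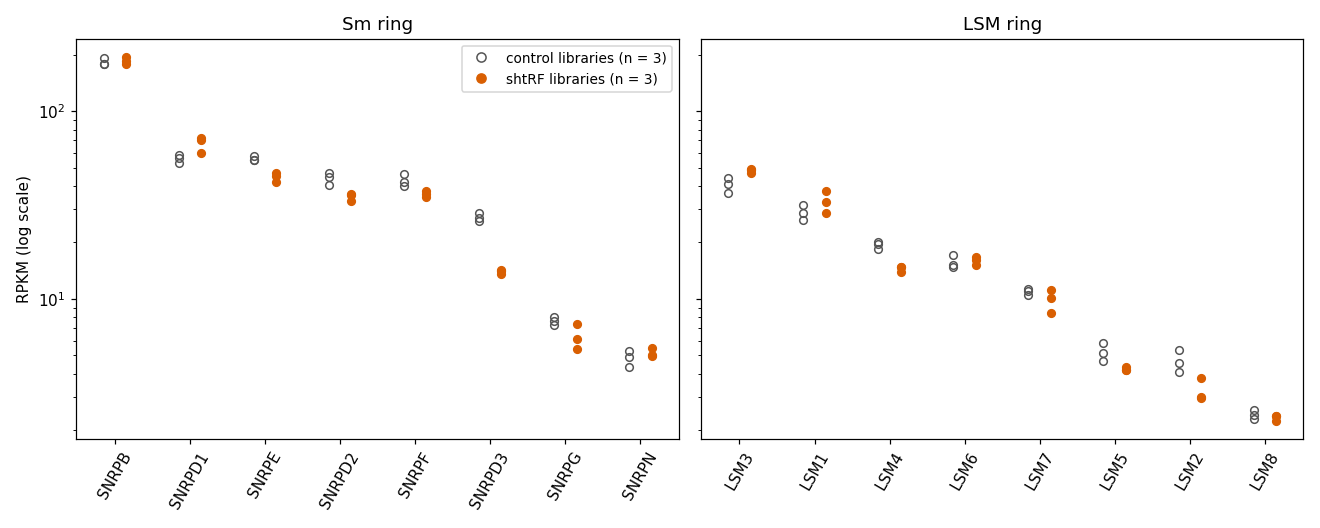
RPKM (counted reads scaled to exonic length and library total, log axis) of the 8 Sm ring members, left, and the 8 LSM ring members, right, with 3 control libraries (open) and 3 shtRF libraries (filled) per gene. Genes are ordered by mean RPKM, and the shtRF libraries of SNRPD3 lie far below its control libraries.

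Although the ring proteins are needed in equal number, the mRNA levels per length were not alike. Over the 6 libraries, the mean was 185 RPKM for SNRPB, 61.8 for SNRPD1, 50.3 for SNRPE, 39.7 for SNRPD2, 39.6 for SNRPF, 20.7 for SNRPD3, 6.97 for SNRPG and 5.00 for SNRPN. The lengths cover the exons of all annotated transcripts, so a gene with long exons that are seldom used gets a lower RPKM. SNRPD3 dropped from 27.3 ± 1.41 (SD, n = 3) to 14.0 ± 0.358 RPKM (SD, n = 3) and lay between SNRPF and SNRPG in both groups.

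Of the 6 genes of the U1 class 1 fell and none rose, and the median log2 fold change was -0.09. The gene that fell was SNRPA, the A protein of the U1 snRNP, which grips a stem-loop of U1 snRNA, at 44.2, 46.2 and 44.0 CPM in control and 33.2, 35.8 and 33.1 in shtRF. All shtRF libraries lay below all control libraries (-0.40, SE 0.06, adjusted p = 1.03e-05). SNRNP70, the U1-70K protein and the most abundant of the class per length (69.9 RPKM), was at 345, 335 and 332 CPM in control and 307, 323 and 323 in shtRF, which did not pass (-0.09, SE 0.05, adjusted p = 0.199). SNRPC, PRPF39 and PRPF40B, also proteins of U1 or tied to it, lay between -0.12 and 0.07 and did not pass. PRPF40B shares 48.7% of its exonic bases with FMNL3 and PRPF39 13.2% with FKBP3.

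In the U2 class, which includes the U2AF factors that read the end of the intron, 6 of 13 members fell, 2 rose and 5 did not pass, with a median of -0.20, which was -0.098 without control replicate 3. The fall was largest for SNRPA1, which binds U2 snRNA together with SNRPB2. SNRPA1 was at 98.2, 98.7 and 107 CPM in control and 71.7, 79.8 and 72.8 in shtRF, with a wide gap between the groups (-0.44, SE 0.06, adjusted p = 2.20e-06). SNRPB2 fell as well (-0.28, SE 0.07, adjusted p = 0.00388).

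The SF3A and SF3B complexes hold the branch point region of U2 and were split. SF3A2 was at 69.3, 58.7 and 58.9 CPM in control and 43.6, 49.0 and 47.3 in shtRF (-0.42, SE 0.07, adjusted p = 3.03e-05), while its partners rose. SF3A3 was at 339, 332 and 339 and then 371, 413 and 392 (0.22, SE 0.05, adjusted p = 0.00246), and SF3A1 at 240, 217 and 235 and then 255, 270 and 270 (0.20, SE 0.05, adjusted p = 0.00527). In all 3 genes the groups did not overlap. SF3A2 shares 12.7% of its exonic bases with PLEKHJ1 on the opposite strand, which had a log2 fold change of -0.43. The call for SF3A1 was lost without control replicate 2 (0.15, adjusted p = 0.0555).

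Among SF3B genes, SF3B3 was at 90.4, 95.9 and 97.5 CPM in control and 73.5, 71.9 and 73.0 in shtRF (-0.38, SE 0.05, adjusted p = 4.89e-06). SF3B1, which contacts the branch point helix, was lower at -0.22 (SE 0.05, adjusted p = 0.00150), as was SF3B6 at -0.22 (SE 0.06, adjusted p = 0.00587). SF3B2, the most abundant U2 gene per length (155 RPKM), was at 1533, 1488 and 1532 CPM in control and 1398, 1592 and 1549 in shtRF, and its groups overlapped (-0.00, SE 0.06, adjusted p = 0.964). SF3B4 and SF3B5, at 0.09 and -0.20, did not pass either.

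U2AF1, which reads the AG at the end of introns, did not pass at 197, 205 and 211 CPM in control and 177, 198 and 187 in shtRF (-0.12, SE 0.06, adjusted p = 0.0841). Its annotated copy U2AF1L5, with 2154, 2355 and 2458 counts in control and 2002, 1972 and 1713 in shtRF, was called lower (-0.16, SE 0.06, adjusted p = 0.0387). The sequences are so alike that the split of reads between these copies is uncertain. Another relative, U2AF1L4, was called higher, with 395, 432 and 551 counts in control and 649, 727 and 572 in shtRF (0.64, SE 0.10, adjusted p = 3.58e-05). U2AF2, which binds the polypyrimidine tract, was at -0.09 (SE 0.06, adjusted p = 0.231).

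In the tri-snRNP class 4 of 8 members fell, 2 rose and 2 did not pass, with a median of -0.13. The summed level of the class was 2254, 2193 and 2285 CPM in control and 1931, 2097 and 2057 in shtRF. These sums did not overlap between the groups, but those of the class without SNRNP200 did. The sums of the U1 class and of the class of U7 and other LSM genes were also lower without overlap. In the latter sum the largest part was LSM14A, at 225, 205 and 216 CPM in control and 143, 147 and 143 in shtRF. The U7 genes LSM10 and LSM11 reached at most 2.88 and 3.18 CPM in any library. The sum of the minor spliceosome class was higher without overlap. SNRNP200, the Brr2 helicase that unwinds U4 from U6, accounted for the largest part of the tri-snRNP sum. It was at 971, 955 and 979 CPM in control and 720, 793 and 769 in shtRF. It fell by 21.5% (-0.35, SE 0.05, adjusted p = 2.20e-05). PRPF3, a U4/U6 protein, was at 155, 159 and 162 CPM and then 122, 129 and 123 (-0.35, SE 0.05, adjusted p = 1.10e-05). For both genes the highest shtRF library was well under the lowest control library.

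SNRNP40, a U5 protein, was at 25.3, 22.6 and 29.7 CPM in control and 21.9, 21.9 and 22.3 in shtRF (-0.23, SE 0.08, adjusted p = 0.0273). PRPF6, the bridge between U5 and U4/U6 and the most abundant of the class per length (138 RPKM), was at 443, 431 and 450 and then 370, 414 and 412 (-0.15, SE 0.06, adjusted p = 0.0409). The call for SNRNP40 was lost without control replicate 3 (-0.12, adjusted p = 0.221) and without any one of the shtRF replicates 1, 2 and 3 (adjusted p = 0.0724, 0.0806 and 0.0687). The call for PRPF6 was lost without control replicate 1 or 3 (adjusted p = 0.0860 and 0.0910) and without shtRF replicate 1 or 3 (adjusted p = 0.135 and 0.0665). PRPF8, the scaffold of the catalytic core, was at -0.12 (SE 0.05, adjusted p = 0.0607) and PRPF4 at 0.02 (SE 0.06, adjusted p = 0.849).

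SNRNP27 and PRPF31 rose. SNRNP27, a protein of the tri-snRNP, was at 195, 182 and 200 CPM in control and 228, 262 and 243 in shtRF (0.35, SE 0.06, adjusted p = 6.01e-05), and it shares 10.4% of its exonic bases with MXD1 (log2 fold change 0.25). PRPF31, a U4/U6 protein, was at 258, 238 and 252 and then 271, 282 and 297 (0.18, SE 0.05, adjusted p = 0.0103). It shares 32.0% with AC012314.8 on the opposite strand (log2 fold change 0.17). The call for PRPF31 was lost without control replicate 2 (adjusted p = 0.0791) and without shtRF replicate 3 (adjusted p = 0.0812).

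In the LSM rings 3 of 8 members fell, 2 rose and 3 did not pass, with a median of -0.05, which was -0.089 without shtRF replicate 1 and -0.0064 without shtRF replicate 3. LSM2 to LSM8 form the nuclear ring on U6 snRNA, and in the cytoplasm LSM1 takes the place of LSM8 to bind mRNAs that are about to be decapped. LSM4 was at 54.8, 58.3 and 59.98 CPM in control and 44.7, 44.0 and 46.0 in shtRF, with no overlap (-0.36, SE 0.06, adjusted p = 2.23e-05). LSM3, the most abundant LSM ring gene per length (44.5 RPKM), rose from 153, 137 and 167 to 186, 194 and 184 CPM (0.30, SE 0.06, adjusted p = 0.000483).

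The other calls in the LSM ring were weaker. LSM2 was at 4.796, 4.26 and 5.66 CPM in control and 3.19, 3.32 and 4.16 in shtRF (-0.47, SE 0.14, adjusted p = 0.0113), a gene with few counts. LSM5 was at 23.8, 21.5 and 26.9 and then 20.3, 20.4 and 20.1 (-0.25, SE 0.08, adjusted p = 0.0145). LSM1 was at 47.4, 43.7 and 52.6 and then 63.2, 50.5 and 56.8 (0.25, SE 0.07, adjusted p = 0.0116), so its groups overlapped.

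Without control replicate 3 the adjusted p was 0.0746 for LSM2 and 0.107 for LSM5 (log2 fold change -0.15). Without shtRF replicate 1 it was 0.0559 for LSM2 and 0.137 for LSM1 (0.16), and without shtRF replicate 2 it was 0.0528 for LSM2. It was 0.0553 for LSM5 without shtRF replicate 3 and 0.103 for LSM1 without control replicate 2. LSM1 shares 38.5% of its exonic bases with RP11-90P5.2 on the opposite strand, whose log2 fold change was -0.45. LSM6, LSM7 and LSM8 lay between -0.10 and 0.08 and did not pass, and LSM8, the member that marks the nuclear ring, had the lowest level per length of the 8 (2.38 RPKM).

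Of the 5 genes grouped as B complex, Prp19 complex, second-step and kinase genes, 2 rose, 2 fell and 1 did not pass, with a median of -0.12. PRPF38B was at 752, 684 and 795 CPM in control and 904, 1014 and 973 in shtRF (0.37, SE 0.06, adjusted p = 4.49e-05). PRPF38A, its relative and a protein of the precatalytic B complex, was at 131, 128 and 142 and then 105, 118 and 112 (-0.26, SE 0.06, adjusted p = 0.00117). The pair thus moved in opposite directions, each without overlap between groups.

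PRPF18, which acts in the second step of splicing, was at 69.9, 68.3 and 68.4 CPM in control and 78.1, 81.2 and 84.0 in shtRF (0.24, SE 0.05, adjusted p = 0.00106). Of its exonic bases, 48.5% are shared with RP11-295P9.13 on the same strand (log2 fold change 0.14). PRPF4B, a kinase that phosphorylates tri-snRNP proteins, was at 347, 352 and 391 and then 295, 318 and 304 (-0.25, SE 0.06, adjusted p = 0.00132). PRPF19, the ubiquitin ligase of the Prp19 complex, was at -0.12 (SE 0.05, adjusted p = 0.100).

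All 3 genes of the minor spliceosome passed the test, and they did not move together. SNRNP35 (chr12:123457641-123473154), the U11 counterpart of U1-70K, had the largest rise of the 56 members, from 37.8, 33.8 and 37.4 CPM in control to 48.6, 54.2 and 55.2 in shtRF (0.54, SE 0.06, adjusted p = 6.03e-07). Of its exonic bases, 40.1% are shared with RILPL1 on the opposite strand (log2 fold change 0.07). SNRNP25, another U11/U12 protein, rose by 31.4%, from 75.3, 78.8 and 80.1 to 100, 106 and 102 CPM (0.39, SE 0.05, adjusted p = 2.98e-06).

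SNRNP48, which recognises the start of minor introns, fell by 22.6%, from 84.4, 73.8 and 78.1 CPM in control to 59.1, 62.0 and 61.8 in shtRF (-0.37, SE 0.06, adjusted p = 2.27e-05). In each of these 3 genes the groups did not overlap.

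Of the 5 remaining LSM genes 2 fell, none rose and the median was -0.12. That median was -0.25 without control replicate 1, -0.065 without control replicate 2 and -0.068 without control replicate 3. LSM11 (chr5:157743695-157760709), which with LSM10 replaces SNRPD1 and SNRPD2 in the U7 ring, had the largest fall of all members but few counts, with 132, 240 and 246 in control and 126, 86 and 59 in shtRF. The groups did not overlap, but the gap was narrow, with control replicate 1 at 2.03 CPM and shtRF replicate 1 at 1.79 CPM. The log2 fold change was -1.05 (SE 0.22, adjusted p = 0.000567) and was -0.25 (adjusted p = 0.0224) with limma on log2(RPKM + 1), a scale that shrinks the change of a gene of 0.313 RPKM. LSM10 was also low and did not pass (0.06, SE 0.17, adjusted p = 0.7999).

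LSM14A, a protein of cytoplasmic P-bodies that represses translation, was at 225, 205 and 216 CPM in control and 143, 147 and 143 in shtRF. The groups were far apart, and LSM14A fell by 32.9% (-0.58, SE 0.05, adjusted p = 1.28e-08). Its paralogue LSM14B was at 123, 113 and 125 and then 118, 121 and 121 (-0.01, SE 0.05, adjusted p = 0.952), and LSM12 was at -0.12 (SE 0.10, adjusted p = 0.337).

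**Figure D4:**
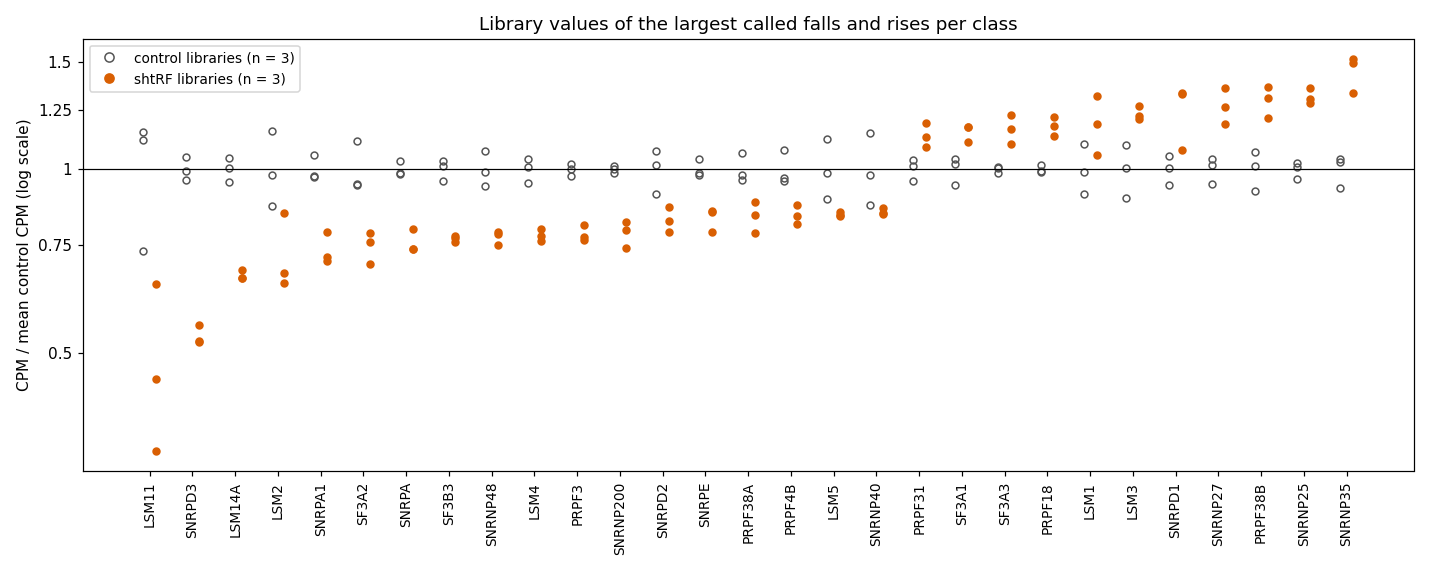
CPM of each library divided by the mean of the 3 control libraries (y axis, log scale) for up to 3 called falls and 3 called rises of each class (x axis), with control libraries open and shtRF libraries filled. SNRPD3, LSM11 and LSM14A lie farthest below 1 and SNRNP35 farthest above, and LSM1 is the one gene shown whose groups overlap.

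Of the 11 members that share 10% or more of their exonic bases with another gene, 5 were higher and 2 lower. Of the 45 under 10%, 6 were higher and 21 lower, and their median log2 fold change was -0.15. Of all tested genes, with or without such overlap, 20.6% were higher and 18.9% lower, and these shares were not split by overlap. The part of exon overlap in these counts was not tested.

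Other genes of the pathway were described from a list of 57 spliceosome and snRNP assembly genes, all of which were tested. Of these 14 rose, 13 fell and 30 did not pass, with a median of 0.00. Over all tested genes 20.6% were higher and 18.9% lower. With upper quartile scaling, 12 genes of the list were higher and 17 lower, where 3508 of all genes were higher and 4174 lower. Among 35 further spliceosome proteins 10 rose and 6 fell. SNU13, which binds the U4 snRNA before PRPF31 does, fell from 29.8, 29.5 and 36.3 CPM to 23.8, 22.7 and 23.8 (-0.44, SE 0.08, adjusted p = 6.09e-05). PPIH, a cyclophilin of the U4/U6 particle, rose from 31.7, 28.8 and 32.7 to 41.1, 43.1 and 39.7 (0.41, SE 0.06, adjusted p = 1.95e-05). DHX16, a helicase of the activated spliceosome, rose as well (0.33, SE 0.06, adjusted p = 0.000135).

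Of 5 further minor spliceosome genes 3 rose and 1 fell. ZRSR2, which recognises the end of minor introns, was at 114, 100 and 113 CPM in control and 172, 186 and 190 in shtRF, with no overlap (0.74, SE 0.06, adjusted p = 1.76e-09). Among 17 genes that assemble snRNPs, chiefly the SMN complex that loads Sm proteins onto snRNA, 6 fell and 1 rose, with a median of -0.22. GEMIN8, a member of that complex, was at 7.46, 8.88 and 8.79 CPM in control and 5.40, 6.23 and 6.29 in shtRF (-0.49, SE 0.11, adjusted p = 0.000838). SMN2 was at 15.3, 14.7 and 15.8 and then 14.5, 11.4 and 10.5 (-0.33, SE 0.10, adjusted p = 0.00937), a call that was lost without shtRF replicate 2 (adjusted p = 0.0577) and without shtRF replicate 3 (adjusted p = 0.0880). Its reads cannot be cleanly separated from those of SMN1, a near-identical copy. SMN1 is counted as a separate fall among the 6 (-0.31, SE 0.11, adjusted p = 0.0339), and its call was kept in only 2 of the fits without 1 library. Over all tested genes 18.9% were lower and 20.6% higher.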

How the data were processed

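Total RNA was made into 3 control and 3 shtRF stranded mRNA libraries and sequenced as read pairs. The authors deposited raw read counts per gene and RPKM values. Per the submitters' processing notes, Trimmomatic 0.36, featureCounts, Subread 1.5.1, edgeR 3.12.1 and GRCh38 were used. The aligner, annotation release and strand setting are not given in the sources used here. The deposited RPKM values equalled the count divided by exonic length and library total (relative tolerance 1e-05) in 100% of 4991 genes compared, so RPKM was recomputed from the counts for every member. Among counts of 1 to 4, 74.2% to 77.1% were even, against 49.7% to 50.7% of counts of 1000 or more, a pattern that arises when both mates of a pair are counted, so fewer fragments may stand behind a low count.

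Counts were tested with edgeR 4.0.16 in R 4.3.3 (filterByExpr with a minimum count of 10, TMM, quasi-likelihood test with group only), adjusted over all 19628 tested genes. CPM of members were scaled with TMM factors and those of cell line markers by the library total, and standard errors come from the estimate and its F statistic. The scripts were tested on simulated data. Exon overlap was computed from the exon coordinates in the count table, and biotypes came from GENCODE 29. Promoter windows came from RefSeq. The members, classes and lists were chosen with earlier results of these data known. Named with a value in every library were, per class, up to 3 called falls and 3 called rises of at least 2 CPM, the member highest in RPKM, and genes with copies. Of the other members, 1 is not reported here by name but is included in the counts, and the rest are named with a fold change only, apart from LSM14B, whose library values were added after its level was seen. Alternatives were RLE and upper quartile scaling, other count filters, DESeq2 1.42.0, limma 3.58.1 on log2(RPKM + 1), leaving out each library, a replicate block and, added after seeing the data, halved counts.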

Additional observations from a re-analysis of the deposited data

How the results depend on the processing

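Across 14 alternatives the number of lower members ran from 18 to 28 and of higher members from 8 to 11. The count of 28 came with upper quartile scaling and with limma on log2(RPKM + 1). Over all genes, upper quartile scaling called 4174 lower and 3508 higher, and limma 3803 lower and 2900 higher. The main fit called 3704 lower and 4046 higher. Of the 34 called members, 26 kept call and direction in all 14. Those that lost it at least once were SNRNP40, SNRPF, PRPF31, PRPF6, SF3A1, LSM2, LSM5 and LSM1. With limma on log2(RPKM + 1) the adjusted p was 0.0637 for SNRNP40, 0.0575 for PRPF31, 0.206 for LSM1 and 0.0510 for SMN2. Of 784 member values 721 stayed on the same side of the threshold in the same direction, 24 lost and 27 gained a call, and 12 changed sign, all of genes that were not called. Without 1 library at a time these ran from -0.038 to 0.18 for LSM10, from -0.040 to 0.042 for SF3B2, from -0.17 to 0.0092 for LSM7, from -0.057 to 0.024 for LSM14B, from -0.047 to 0.026 for LSM8 and from -0.025 to 0.055 for PRPF4, and PRPF4 was at -0.019 with upper quartile scaling and -0.032 with limma.

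Upper quartile scaling moved the median of all genes by -0.04. With it, and with limma, the median of the members was -0.16 and -0.16, of U1 -0.12 and -0.13, of the tri-snRNP class -0.17 and -0.18 and of the other list -0.032 and -0.043, and upper quartile scaling gave -0.24 for U2. Without any 1 library the U2 median lay between -0.23 and -0.098. That of the class of U7 and other LSM genes lay between -0.25 and -0.065. The cause was not tested. The replicate numbers did not pair the samples (correlations of deviations 0.0592, 0.0178 and 0.0174), and with a replicate block 24 members were lower and 11 higher. Few counts limit the precision for LSM11 and LSM10.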
